A study of Mus musculus with 5 samples.

Results

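The genes described here encode the RIG-I-like receptors of mouse macrophages, their shared adaptor and other proteins that bind or act on double-stranded RNA. They are 10 genes chosen by symbol: the receptor genes Ifih1, Ddx58 and Dhx58, which encode MDA5, RIG-I and LGP2, the adaptor Mavs, the effectors Eif2ak2 (PKR) and Adar, and the RNA helicases and RNA-binding proteins Ddx60, Znfx1, Zc3hav1 (ZAP) and Helz2. Each symbol matched 1 of the 30478 genes in the table, and all 10 were among the 14977 genes with enough reads to test.

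Macrophages of the abdominal cavity (peritoneal macrophages) were isolated by flow cytometry from C57BL/6 mice and profiled by strand-specific RNA sequencing. The wild-type (wt) group held 3 libraries, of which wt 1 came from a 13-week male, wt 2 from a 13-week female and wt 3 from a 9-week female. The other group, called mutant here, held 2 libraries from 8-week females labelled Samhd1 del/del and cGAS-GFP ki/ki, so both genetic changes were homozygous and present together. The comparison cannot assign a difference to either change, and age cannot be told apart from genotype. The wt libraries differ in sex or age and so in animal, but the labels do not say whether the 2 mutant libraries are from separate animals. The p-values therefore describe only how these samples spread, and part of the spread between the mutants may be technical.

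RIG-I-like receptors are cytosolic helicases that recognise viral or aberrant cellular RNA. MDA5 assembles along long double-stranded RNA, RIG-I binds triphosphate-bearing RNA ends, and both engage MAVS on mitochondria, which activates TBK1 and the interferon regulatory factors. LGP2 lacks the signalling domains of its relatives and modulates them. The receptors and most of the effectors are themselves inducible by interferon. The question named in the series title is how MDA5 relates to SAMHD1 loss and to the cytosolic DNA sensor cGAS with its adaptor STING.

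All 3 receptors were lower in the mutant, and the adaptor Mavs did not pass the test. Levels are normalized counts, which are reads divided by a size factor of the library, and differences were tested with limma, a linear model with pooled spread, on their log2 values. Of the 10 genes, 9 fell and 0 rose by limma at an adjusted p under 0.05, whereas 4.89% of all tested genes were called lower and 3.71% higher. At an unadjusted p under 0.05 the counts were also 9 lower and 0 higher, against 17.7% and 13.9% of all tested genes. The other tools, edgeR, DESeq2 and limma-voom, each called 9 lower and 0 higher as well. Of all genes they tested, edgeR called 4.47% lower and 4.29% higher, DESeq2 10.1% and 8.66%, and limma-voom 4.55% and 4.03%. The called genes that were at least 2-fold lower numbered 8, against 2.26% of all tested genes. In 9 genes both mutant libraries lay below every wt library, which held for 26.9% of all tested genes, and in 0 genes did both lie above, which held for 24.3%. The median log2 fold change of the 10 genes was -1.27, from -2.39 for Helz2 to 0.06 for Mavs, while the median of all tested genes was 0.00033. In bulk RNA, fewer cells of an expressing type and less RNA per cell cannot be told apart.

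Together the 10 genes took 2451, 2476 and 2502 counts scaled to library depth (CPM) in wt 1 to 3 and 1064 and 1037 CPM in mutants 1 and 2. The wt libraries were within a narrow band, and both mutants were far below it. The share of reads on the ribosomal RNA gene Rn18s also moved with genotype, at 0.599% to 1.64% in wt and 5.28% and 4.04% in mutants 1 and 2, and its part in these results was not tested.

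**Figure D1:**
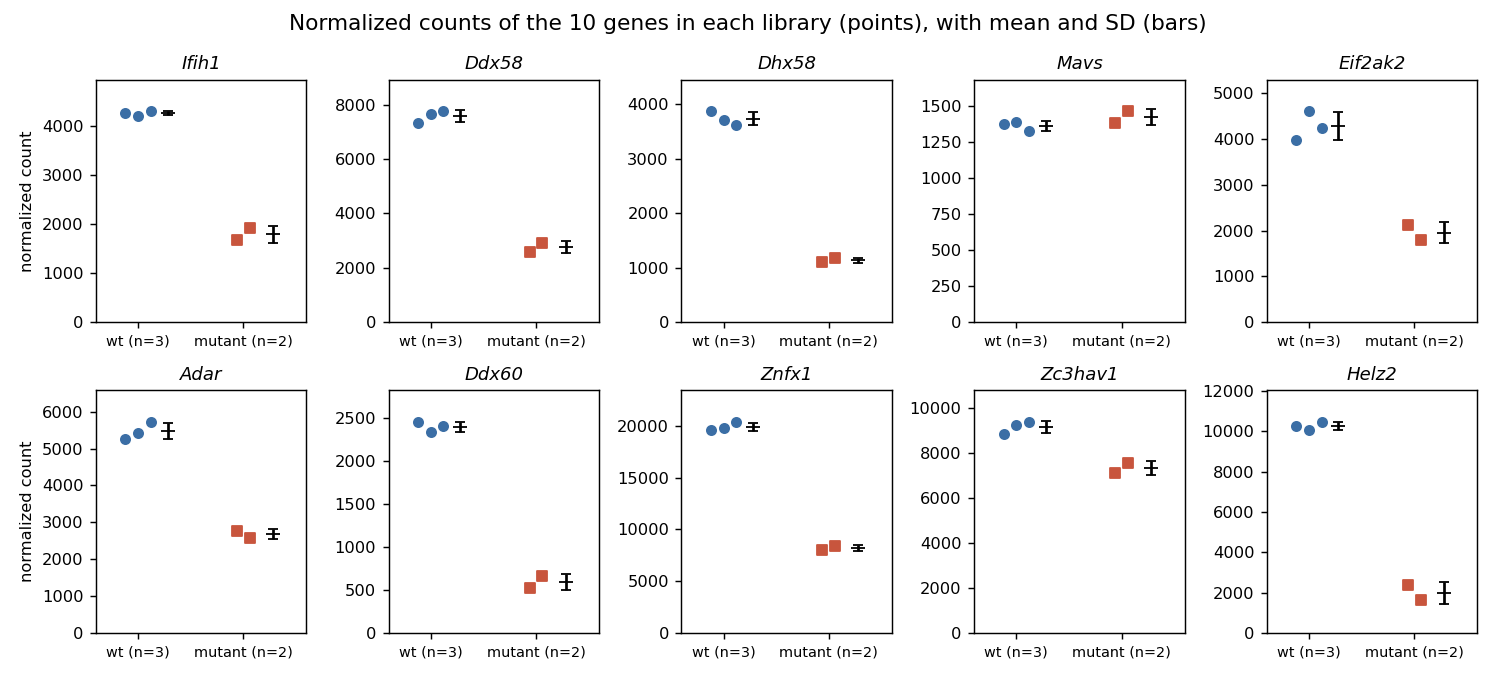
Normalized count of each of the 10 genes (y axis, starting at 0) in the 3 wt libraries (circles, wt 1 to 3 from left to right) and the 2 mutant libraries (squares, mutant 1 then mutant 2), with the mean and SD of each group beside the points. Both mutant libraries lie below every wt library for 9 genes, and Mavs is the gene whose groups overlap.

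Depth and identity of the libraries were as follows. The wt libraries held 30026622 to 33119434 reads and the mutants 27282354 to 28517346. Samhd1 read 17823, 16777 and 18274 normalized counts in wt 1 to 3 and 1279 and 1431 in mutants 1 and 2, and Cgas 974, 1212 and 968 against 184 and 85.1, which puts each mutant far below wt for both. The macrophage markers Adgre1, Csf1r, Itgam, Lyz2, Cd68 and Mertk were all detected, and their summed level was 8692 to 10282 CPM in wt and 15733 and 24791 CPM in mutants 1 and 2. Most of that gap was Lyz2, at 4177 to 4982 CPM in wt and 10258 and 17195 CPM in the mutants. Mutants 1 and 2 also exceeded every wt library for Csf1r, at 2560 and 4007 CPM against 1809 to 2202 CPM. The same held for Mertk, at 92.7 and 147 CPM against 54.3 to 55.7 CPM. For Adgre1, Itgam and Cd68, mutant 1 lay inside the wt range and mutant 2 above it. Of the markers of resident large peritoneal macrophages, Gata6 and Timd4 had 0 reads in all 5 libraries, and Icam2 stood at 11.0 to 13.4 CPM in wt and 6.91 and 5.09 CPM in the mutants. The 6 B cell markers summed to 93.9 to 117 CPM in wt and 196 and 226 CPM in the mutants, and most of that was Ighm, at 78.3 to 103 CPM in wt and 170 and 207 CPM in the mutants. The 4 T cell markers summed to at most 0.167 CPM, the 3 neutrophil markers to 15.9 to 22.5 CPM with no separation of the groups, and markers of natural killer, dendritic, mast, eosinophil, mesothelial and erythroid cells to at most 2.60 CPM each. The part of these differences in Lyz2, Ighm and the other markers in the results below was not tested.

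Promoters of 5 genes that fell are shown because their windows hold a match to a response element, and that of Mavs because it holds none and Mavs did not pass the test. The choice followed the matches but is not complete, since Adar, which fell and also holds a match, is not printed. Znfx1 and Zc3hav1, which fell and hold none, are not printed either. The RefSeq table (GRCm38.p6) holds the 250 bases before and 50 bases after the annotated start, and 9 of the 10 genes, all but Dhx58, had 12 such windows. The interferon-stimulated response element was searched as GAAANNGAAA on both strands, and the window was also searched for GAAANGAAA, a form with a shorter gap that was added after the windows had been read. The capitals mark these matches, and the sequences are written 5′ to 3′ on the strand of the gene.
Ifih1 (chr2:62646206-62646505, minus strand): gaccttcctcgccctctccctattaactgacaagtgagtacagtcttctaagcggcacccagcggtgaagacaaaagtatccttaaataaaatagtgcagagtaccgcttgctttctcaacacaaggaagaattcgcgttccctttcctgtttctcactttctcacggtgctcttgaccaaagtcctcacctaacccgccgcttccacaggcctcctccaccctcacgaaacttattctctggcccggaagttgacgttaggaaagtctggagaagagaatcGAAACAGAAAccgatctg
Ddx58 (chr4:40239776-40240075, minus strand): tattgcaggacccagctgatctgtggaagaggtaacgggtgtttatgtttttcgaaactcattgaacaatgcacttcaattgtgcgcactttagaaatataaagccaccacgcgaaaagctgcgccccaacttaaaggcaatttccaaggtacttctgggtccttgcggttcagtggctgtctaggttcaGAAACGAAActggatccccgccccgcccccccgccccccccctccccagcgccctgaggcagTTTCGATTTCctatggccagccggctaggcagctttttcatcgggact
Eif2ak2 (chr17:78882523-78882822, minus strand): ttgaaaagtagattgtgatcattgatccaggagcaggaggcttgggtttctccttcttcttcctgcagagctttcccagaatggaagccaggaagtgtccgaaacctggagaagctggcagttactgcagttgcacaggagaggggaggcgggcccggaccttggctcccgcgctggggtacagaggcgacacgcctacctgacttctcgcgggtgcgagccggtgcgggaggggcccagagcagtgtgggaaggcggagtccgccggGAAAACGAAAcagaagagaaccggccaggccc
Ddx60 (chr8:61927837-61928136, plus strand): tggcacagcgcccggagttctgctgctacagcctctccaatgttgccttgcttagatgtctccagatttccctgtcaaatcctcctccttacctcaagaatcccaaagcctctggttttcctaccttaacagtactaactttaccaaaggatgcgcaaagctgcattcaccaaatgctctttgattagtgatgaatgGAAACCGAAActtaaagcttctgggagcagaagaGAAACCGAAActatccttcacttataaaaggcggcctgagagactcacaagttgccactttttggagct
Helz2 (chr2:181241978-181242277, minus strand): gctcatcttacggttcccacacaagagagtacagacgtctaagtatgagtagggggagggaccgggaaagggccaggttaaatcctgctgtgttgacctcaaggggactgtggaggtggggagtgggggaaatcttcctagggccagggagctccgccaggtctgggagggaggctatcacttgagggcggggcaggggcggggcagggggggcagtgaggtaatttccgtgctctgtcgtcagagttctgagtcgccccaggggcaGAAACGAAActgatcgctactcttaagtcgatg
Mavs (chr2:131233813-131234112, plus strand): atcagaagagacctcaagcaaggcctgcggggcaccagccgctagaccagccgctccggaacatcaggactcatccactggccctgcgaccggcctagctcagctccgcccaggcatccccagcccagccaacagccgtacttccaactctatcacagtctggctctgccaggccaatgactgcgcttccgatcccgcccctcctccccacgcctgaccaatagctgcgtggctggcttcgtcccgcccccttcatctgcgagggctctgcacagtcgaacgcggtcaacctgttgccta

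GAAANNGAAA was found in 4 of the 12 windows, those of Ifih1, Ddx58, Eif2ak2 and Ddx60, against 3.44% of all 32851 windows in the table. Ddx60 carried it in the same letters, GAAACCGAAA, at 53 and again at 19 bases before the annotated start. In Ifih1 the match GAAACAGAAA began 32 bases past the start and in Eif2ak2 the match GAAAACGAAA began 18 bases past it. Ddx58 held the reverse complement TTTCGATTTC 2 bases past its start and the shorter-gap form GAAACGAAA 60 bases before it. Helz2 held GAAACGAAA 17 bases past its start, and 1 of the 3 Adar windows held the same letters 28 bases past its own start. The shorter-gap form was present in 3.17% of all windows and either form in 6.27%. No match to either form lay in the windows of Mavs, Zc3hav1 or Znfx1, of which Mavs did not pass the test, Zc3hav1 fell least and Znfx1 fell more than 2-fold. The palindromic element TTCNNNGAA was found in 2 of the 12 windows, of Adar and Eif2ak2, against 8.30% of all windows. A match describes letters in a window and shows neither binding nor its absence.

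Among the receptors, Ifih1 (ENSMUSG00000026896, GENCODE M21 on GRCm38, chromosome 2, 62595798 to 62646255, minus strand) encodes MDA5, the receptor named in the series title. It read 4272, 4213 and 4302 normalized counts in wt 1 to 3 and 1672 and 1914 in mutants 1 and 2. The wt values differed from each other by a factor of at most 1.02, and the lowest of them was 2.20 times the higher mutant. Ifih1 was 2.38-fold lower, at -1.25 on the log2 scale (SE 0.0788, limma adjusted p = 0.00052), and among the lowest 2.40% of all tested genes.

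Ddx58 (chromosome 4, 40203773 to 40239828, minus strand) encodes RIG-I. It read 7311, 7667 and 7750 in wt 1 to 3 and 2594 and 2901 in mutants 1 and 2, with no overlap between the groups. That is 2.76-fold lower, or -1.46 on the log2 scale (SE 0.0762, limma adjusted p = 0.000235).

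Dhx58 (chromosome 11, 100694884 to 100704271, minus strand), the gene of the regulator LGP2, had the largest fall of the receptors. Its values were 3865, 3710 and 3618 in wt 1 to 3 and 1098 and 1167 in mutants 1 and 2. The mutants agreed within a factor of 1.06 and stood at 29.4% and 31.3% of the wt mean. LGP2 transcripts were thus 3.29-fold lower (log2 -1.72, SE 0.0702, limma adjusted p = 0.000109), the lowest adjusted p among the 10 genes.

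Within each library the receptors were compared per kb of gene length, using the lengths in the deposited table. Dhx58 stood at 2.26, 2.20 and 2.10 times Ifih1 in wt 1 to 3 and at 1.64 and 1.52 times in mutants 1 and 2. Ddx58 stood at 1.98, 2.11 and 2.09 times Ifih1 in wt and at 1.80 and 1.76 times in the mutants. Both ratios were lower in the mutants without overlap, so Ifih1 kept a larger share of its wt level than either relative. Each ratio gave p = 0.2 in a two-sided exact permutation test, which is the smallest value that 3 against 2 libraries allow, and the test was made for 5 ratios in all. Summed over the 3 receptors, reads came to 562.6 to 563.7 CPM in wt and to 192 and 206 CPM in mutants 1 and 2.

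Mavs (chromosome 2, 131234063 to 131248025, plus strand), the mitochondrial adaptor through which MDA5 and RIG-I signal, is the exception among the 10 genes. It read 1381, 1393 and 1327 in wt 1 to 3 and 1387 and 1466 in mutants 1 and 2. Mutant 1 lay inside the wt range and mutant 2 above it. Its log2 fold change of 0.06 (SE 0.0713, limma adjusted p = 0.593) had a 95% interval from -0.11 to 0.23, so a fall of the size seen in any receptor lies outside the interval. Relative to Ifih1 per kb, Mavs stood at 0.789, 0.807 and 0.753 in wt 1 to 3 and at 2.02 and 1.87 in mutants 1 and 2, without overlap (two-sided exact permutation p = 0.2, the smallest possible). That ratio restates the values of both genes and is no separate evidence.

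**Figure D2:**
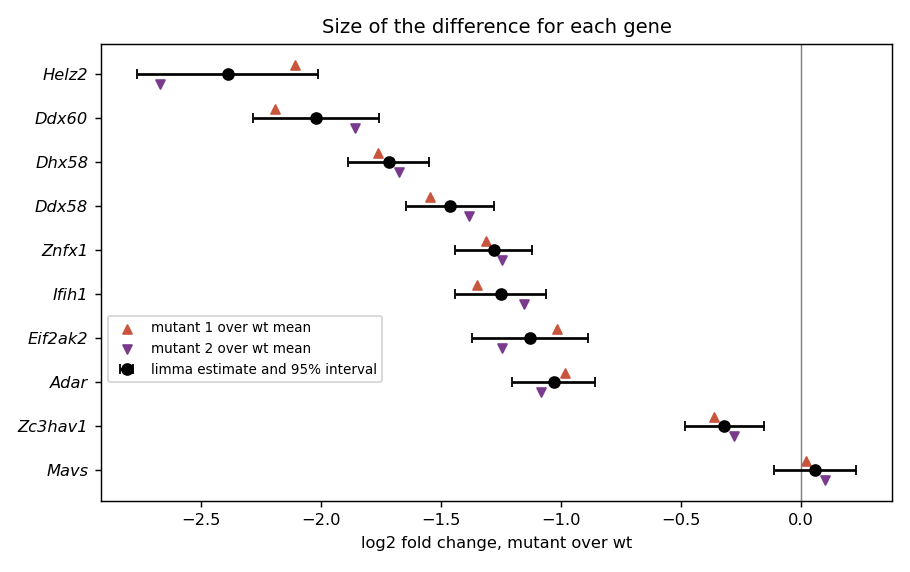
Log2 fold change, mutant over wt (x axis), of each of the 10 genes: black circles and bars are the limma estimate and its 95% interval, and triangles are each mutant library against the wt mean. The interval of Mavs spans 0, that of Zc3hav1 lies closest to it among the genes that fell, and the mutants are farthest apart for Helz2.

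Eif2ak2 (chromosome 17, 78852564 to 78882573, minus strand) encodes PKR, the kinase that halts translation by phosphorylating eIF2 alpha when it binds double-stranded RNA. It read 3989, 4607 and 4248 in wt 1 to 3 and 2114 and 1803 in mutants 1 and 2. The wt spread was the widest of the 10 genes, with a coefficient of variation of 7.25%, and still left every wt value at least 1.89 times the higher mutant. PKR transcripts were 2.19-fold lower (log2 -1.13, SE 0.0997, limma adjusted p = 0.00215).

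Adar (chromosome 3, 89715022 to 89753446, plus strand) encodes the enzyme that converts adenosine to inosine in double-stranded RNA and so keeps self RNA from activating MDA5. Its values were 5275, 5432 and 5723 in wt 1 to 3 and 2772 and 2587 in mutants 1 and 2. Of the wt mean, 50.6% was left in mutant 1 and 47.2% in mutant 2 (log2 -1.03, SE 0.0719, limma adjusted p = 0.000775). Counts are per gene, so the interferon-inducible and constitutive isoforms of Adar, and likewise the long and short forms of Zc3hav1, were not separated.

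Ddx60 (chromosome 8, 61928087 to 62038244, plus strand), a helicase described as a cofactor of the RIG-I-like receptors, was the gene of lowest level per length. It read 2457, 2337 and 2413 in wt 1 to 3 and 526 and 661 in mutants 1 and 2. Even the lowest wt value was 3.53 times the higher mutant. Ddx60 was 4.06-fold lower (log2 -2.02, SE 0.109, limma adjusted p = 0.000274). Its lowest library held 537 reads, for which counting error alone is 4.32%, against a coefficient of variation of 16.2% between the mutants.

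Znfx1 (chromosome 2, 167035793 to 167063015, minus strand), a helicase described as a sensor of viral double-stranded RNA at mitochondria, was the most abundant of the 10 genes in wt, also per length. Its values were 19621, 19819 and 20397 in wt 1 to 3 and 8022 and 8400 in mutants 1 and 2. The mutants were at 40.2% and 42.1% of the wt mean, close to the shares left for Ifih1, 39.2% and 44.9%. That fall was -1.28 on the log2 scale (SE 0.0669, limma adjusted p = 0.000237).

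Helz2 (chromosome 2, 181227615 to 181242027, minus strand), a helicase with zinc fingers known as a nuclear receptor coactivator, had the largest fall of all. It read 10290, 10061 and 10462 in wt 1 to 3, a spread of 1.96% of the mean, and 2377 and 1610 in mutants 1 and 2. Mutant 2 was at 0.677 times mutant 1, the widest gap between the mutants among the 10 genes, at -0.56 on the log2 scale. A gap over 0.5 in either direction occurred in 23.6% of all tested genes, but these include many genes with few reads. The lowest library of Helz2 held 1514 reads, for which counting error alone is 2.57%. The next widest gap among the 10 genes was 0.33, for Ddx60. Helz2 was 5.25-fold lower (log2 -2.39, SE 0.157, limma adjusted p = 0.000586). Against the wt libraries, it was -2.67 without mutant 1 and -2.11 without mutant 2.

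Zc3hav1 (chromosome 6, 38305286 to 38354603, minus strand) encodes ZAP, which binds CpG-rich viral RNA and recruits its decay. It read 8843, 9239 and 9383 in wt 1 to 3 and 7127 and 7562 in mutants 1 and 2. The groups did not overlap, but the lowest wt value was only 1.17 times the higher mutant. Its fall was -0.32 on the log2 scale (SE 0.0683, limma adjusted p = 0.0424) with a 95% interval from -0.48 to -0.15, which does not reach the interval of any other gene that fell. This call was lost without wt 1, 2 or 3 in turn (limma adjusted p = 0.153, 0.139 and 0.18) and without the filter on low values (limma adjusted p = 0.064). Over all genes, leaving out wt 1, 2 or 3 cut the limma calls lower from 732 to 173, 286 and 177. Losing a call in this way, here and for genes named below, was therefore common. Relative to Ifih1 per kb, Zc3hav1 stood at 2.59, 2.75 and 2.73 in wt 1 to 3 and at 5.34 and 4.95 in mutants 1 and 2 (two-sided exact permutation p = 0.2, the smallest possible). Here too the ratio restates the values of both genes.

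The order of the levels per kb changed between the groups. In wt it ran from Znfx1 (2436 ± 49.2 normalized counts per kb, SD, n = 3) through Zc3hav1 (1405 ± 42.9), Dhx58 (1140 ± 38.2), Ddx58 (1075 ± 33.1), Helz2 (891 ± 17.4), Eif2ak2 (837 ± 60.7), Adar (675 ± 28.0), Ifih1 (522 ± 5.52) and Mavs (409 ± 10.4) to Ddx60 (277 ± 7.01). Helz2 and Eif2ak2 were the only wt neighbours in this order whose ranges overlapped. In the mutants Zc3hav1 came first (1127 ± 47.2, SD, n = 2), ahead of Znfx1 (1003 ± 32.7) and Mavs (426 ± 16.8). Ddx58 (390 ± 30.8), Eif2ak2 (383 ± 43.0), Dhx58 (346 ± 15.0) and Adar (330 ± 16.2) followed, each overlapping its neighbour. Ifih1 (220 ± 20.9) and Helz2 (173 ± 47.1) overlapped as well, and Ddx60 (68.3 ± 11.1) remained last. Mavs moved from rank 9 to rank 3 and Helz2 from rank 5 to rank 9. Gene lengths come from the annotation behind the deposited table and include exons that these cells may not use.

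**Figure D3:**
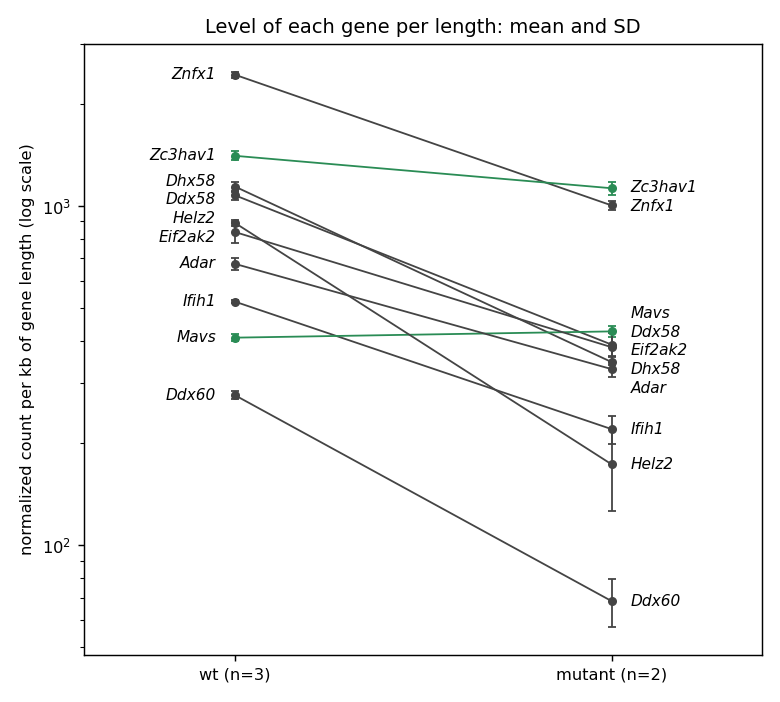
Normalized count per kb of gene length (log y axis) of each gene in wt (left) and mutant (right), as mean with SD, joined by a line per gene. Mavs, in green, is nearly level and Zc3hav1, also in green, descends least, while the lines of the other 8 genes descend, with Helz2 crossing from the fifth to the ninth place.

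The authors' deposited table gave the same directions. As log2 of wt over mutant, its values were 1.19 for Ifih1, 1.38 for Ddx58, 1.61 for Dhx58, 1.04 for Eif2ak2, 1.03 for Adar, 1.84 for Ddx60, 1.28 for Znfx1, 1.94 for Helz2, 0.34 for Zc3hav1 and -0.05 for Mavs. At an adjusted p under 0.05, 9 of the 10 genes were lower in the mutant and 0 higher in the authors' deposited table, against 3.66% and 3.51% of its genes. Those shares are over all 30478 genes, including genes with too few reads to test here. The limma shares are over 14977 tested genes, so the 2 are not alike. Mavs had an adjusted p of 0.452 in the authors' deposited table. Those values share the libraries used here and are no independent evidence. The authors' deposited table also gives a mean above 0 in 3266 rows where all 5 libraries used here hold 0 reads, so its fit may draw on further libraries, and its values are not on the same footing as those above.

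Regulators of the receptors fell in 1 of 15 tested cases by limma, with 0 higher and a median log2 fold change of -0.17. The limma share of all tested genes was 4.89% lower and 3.71% higher. At an unadjusted p under 0.05, which 17.7% of all tested genes met as lower and 13.9% as higher, 5 were lower and 2 higher, and edgeR, DESeq2 and limma-voom called 0 higher. The called gene was Ywhah, which encodes the 14-3-3 eta chaperone of MDA5 (9497, 9712 and 9702 in wt 1 to 3 against 7088 and 6233 in mutants 1 and 2; log2 -0.54, limma adjusted p = 0.0138). Leaving out wt 1, wt 2 or wt 3 ended that call (limma adjusted p = 0.0952, 0.069 and 0.0973). The ubiquitin ligases of RIG-I, Trim25 (-0.41, limma adjusted p = 0.0896) and Rnf135 (-0.20, limma adjusted p = 0.221), and the RNA-binding cofactor Zcchc3 (-0.41, limma adjusted p = 0.106) did not pass. Trim25 read 12323, 11286 and 12956 in wt and 8069 and 10430 in the mutants.

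Downstream of MAVS, 2 of 30 tested genes fell and 0 rose by limma, against 4.89% and 3.71% of all tested genes. The median of this list was -0.06. Unadjusted, 7 were lower and 0 higher, against 17.7% and 13.9% of all tested genes, and edgeR, DESeq2 and limma-voom again called 0 higher. Irf7, the interferon regulatory factor that amplifies interferon production, went from 18448, 16214 and 17987 in wt 1 to 3 to 1260 and 1256 in mutants 1 and 2 (log2 -3.80, limma adjusted p = 1.44e-05). The mitochondrial import receptor gene Tomm70a, whose product binds MAVS, had a log2 fold change of -0.42 (limma adjusted p = 0.0498). Its call was lost without mutant 2, wt 1, 2 or 3 in turn (limma adjusted p = 0.0709, 0.159, 0.151 and 0.162) and in 6 of the 9 other settings, among them edgeR (adjusted p = 0.0527). The kinases Tbk1 (-0.11, limma adjusted p = 0.315) and Ikbke (0.20, limma adjusted p = 0.162) and the constitutive factor Irf3 (0.04, limma adjusted p = 0.765) did not pass. For the interferon beta gene Ifnb1 a single library, mutant 1, held 1 read, too few to compare the groups at this depth.

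Of 16 other tested genes for binding double-stranded or Z-form RNA, 2 fell and 0 rose by limma. The share over all tested genes was 4.89% lower and 3.71% higher, and the median of the list was -0.14. Unadjusted, 2 were lower and 2 higher, against 17.7% and 13.9% of all tested genes. DESeq2 called 1 higher, against 0 for edgeR and for limma-voom. Both that fell are innate sensors. Tlr3, the endosomal receptor for double-stranded RNA, read 1031, 1141 and 1012 in wt 1 to 3 and 363 and 395 in mutants 1 and 2 (log2 -1.48, limma adjusted p = 0.000542). Zbp1, the sensor of Z-form nucleic acid, read 3529, 3323 and 3552 in wt and 264 and 344 in the mutants (log2 -3.51, limma adjusted p = 5.92e-05). Prkra, which encodes the PKR activator PACT, had a log2 fold change of 0.31 that did not pass (limma adjusted p = 0.0643).

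Around eIF2, 1 of 16 tested genes fell and 0 rose by limma, against 4.89% and 3.71% of all tested genes. The median of this list was -0.14. Unadjusted, 6 were lower and 2 higher, against 17.7% and 13.9% of all tested genes. The count called higher was 0 by edgeR and 1 by DESeq2 and by limma-voom. The called gene was the PKR substrate gene Eif2s1 (2654, 3005 and 2729 in wt 1 to 3 against 2171 and 1904 in mutants 1 and 2; log2 -0.46, limma adjusted p = 0.0356), a call that ended on leaving out wt 1, 2 or 3 in turn (limma adjusted p = 0.13, 0.116 and 0.139). The other eIF2 kinases had positive values that did not pass, at 0.22 for the haem-regulated Eif2ak1 (limma adjusted p = 0.0999), 0.32 for Eif2ak3, which encodes PERK (limma adjusted p = 0.0558), and 0.13 for the amino acid sensor Eif2ak4 (limma adjusted p = 0.246). Eif2ak2 itself, at -1.13, was the one kinase of the 4 that passed. The stress-induced transcription factor gene Ddit3, chosen after its values were seen, had a log2 fold change of -1.11 and did not pass (limma adjusted p = 0.0558).

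ZAP partners, related helicases and RNA decay genes fell in 4 of 17 tested cases by limma, against 4.89% of all tested genes. In this list 0 were higher by limma, edgeR, DESeq2 and limma-voom, where limma called 3.71% of all tested genes higher. The median of the list was -0.10. Unadjusted, 6 were lower and 0 higher, against 17.7% and 13.9% of all tested genes. Mov10, an antiviral RNA helicase, read 3280, 3063 and 3582 in wt 1 to 3 and 1099 and 1053 in mutants 1 and 2 (log2 -1.62, limma adjusted p = 0.000271). Parp12, a relative of ZAP, read 5950, 5942 and 5827 in wt and 2343 and 2406 in the mutants (log2 -1.31, limma adjusted p = 0.000159). The decapping enzyme gene Dcp2 (-0.59, limma adjusted p = 0.0442) and the spliceosomal helicase gene Aqr (-0.31, limma adjusted p = 0.0453) fell by less. The call of Dcp2 ended without wt 1, 2 or 3 in turn (limma adjusted p = 0.147, 0.147 and 0.158), and that of Aqr without mutant 2, wt 1, 2 or 3 in turn (limma adjusted p = 0.0675, 0.164, 0.145 and 0.174) or without the filter on low values (0.0684). The ZAP cofactor genes Khnyn (0.27, limma adjusted p = 0.194) and N4bp1 (-0.12, limma adjusted p = 0.498) did not pass.

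**Figure D4:**
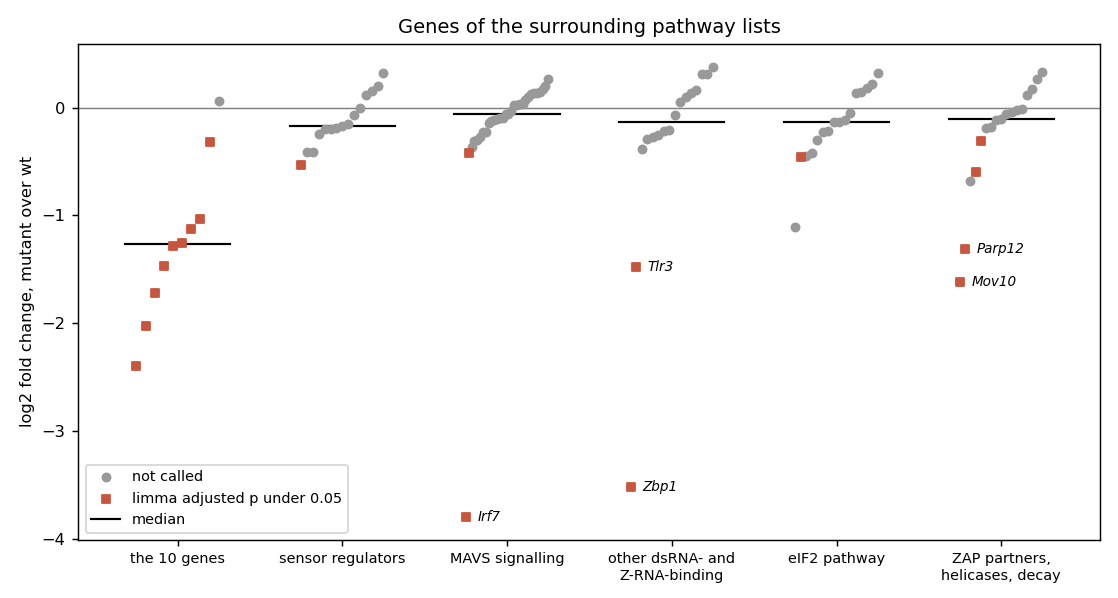
Log2 fold change, mutant over wt (y axis), of the 10 genes and of the tested genes of 5 surrounding lists, each point a gene: squares passed limma at an adjusted p under 0.05, circles did not, and the line is the median. The medians of the lists lie between -0.17 and -0.06, and Irf7, Zbp1, Mov10, Tlr3 and Parp12 are the called list genes below -1.

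Genes next to the 10 genes on the chromosome were examined as well, taking the nearest tested protein-coding gene on each side in GENCODE M21. Of these 20 neighbours, 4 fell, 0 rose and 16 did not pass by limma, with a median log2 fold change of -0.12. Among all tested genes, limma called 4.89% lower and 3.71% higher. Beside Ifih1, the calcium-binding protein gene Gca, 18.0 kb away, had a log2 fold change of -0.67 (limma adjusted p = 0.0286), and beside Dhx58 the histone acetyltransferase gene Kat2a, 0.475 kb away, also had -0.67 (limma adjusted p = 0.0302). Ppdpf near Helz2 (-0.47, limma adjusted p = 0.0451) and Cpe, 2554 kb from Ddx60 (-1.24, limma adjusted p = 0.0227), were the others that fell. All 4 calls ended on leaving out wt 1, wt 2 or wt 3, with limma adjusted p from 0.0944 (Cpe without wt 2) to 0.168 (Ppdpf without wt 1), and that of Ppdpf also without mutant 2 (limma adjusted p = 0.0764), without the filter on low values (limma adjusted p = 0.0549) and by edgeR (adjusted p = 0.0501). Neither neighbour of Ddx58, Mavs, Eif2ak2, Adar, Znfx1 or Zc3hav1 passed.

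Overlapping genes could share reads with Dhx58, Eif2ak2, Adar and Znfx1, since no source used here states how the counting treated strand. Zfas1, which overlaps Znfx1 on the opposite strand, fell from 729, 564 and 643 in wt 1 to 3 to 321 and 357 in mutants 1 and 2 (log2 -0.92, limma adjusted p = 0.0133). Its call ended on leaving out either wt 1 or wt 3 in turn (limma adjusted p = 0.0764 and 0.0843). Opposite Eif2ak2 the annotation places n-R5s29 and Gm26637, which were not analysed here. Dhx58os, antisense to Dhx58, stood at 9.95 to 15.8 in wt and at 4.89 and 19.1 in the mutants, far below Dhx58 itself. Chrnb2, opposite Adar, stood at 133 to 153 in wt and at 115 and 114 in the mutants.

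Profiles over the 5 libraries were compared with that of Ifih1 by Euclidean distance between log2 values relative to each gene's own wt mean. Leaving aside the 10 genes, and genes with Gm or Rik symbols, the nearest were Trim30a, Irgm2, Mndal, Prr5l and Slfn8. Trim30a, a member of the tripartite motif family, was nearest at a distance of 0.0562, with 10756, 10426 and 10898 in wt 1 to 3 and 4080 and 4901 in mutants 1 and 2. The interferon-inducible GTPase gene Irgm2 followed at 0.0643 and the interferon-activated gene Mndal at 0.0873, with Prr5l at 0.118 and Slfn8 at 0.126. Among the other 9 of the 10 genes, Znfx1 was nearest at 0.105, closer than Prr5l and Slfn8, followed by Ddx58 at 0.309, Eif2ak2 at 0.382 and Adar at 0.383. Mavs was the farthest at 1.86, Helz2 lay at 1.70, and Zc3hav1, Ddx60 and Dhx58 lay at 1.32, 1.10 and 0.668. With 5 libraries in 2 groups this distance mostly reflects the size of the difference between the groups.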

How the data were processed

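The tools named per the submitters' processing notes are STAR, Subread with featureCounts, and DESeq 1.6.1, with the build mm10. Their settings, the annotation and the treatment of strand are not stated there. Judged from the values, the signal that the authors deposited is each gene's reads over the library's size factor, called the normalized count. Multiplied back, 100% of values came out as whole reads within 0.001 reads, and these recovered reads were used. The authors' deposited log2 fold changes and adjusted p-values were read from their table, per the file headers, as was a gene length in another unit (bases). No pair of replicates agreed within sampling noise (mean chi-square per gene 12.6 to 53.7), and each library was counted as 1 sample. Such differences do not show that the mutant libraries came from separate animals.

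Differences were tested in limma 3.58.1 (R 4.3.3, trend option) on log2(normalized count + 2). Genes needed 10 normalized counts in 2 libraries or more. Tests were two-sided, with Benjamini-Hochberg adjustment over all genes tested and a threshold of 0.05. The threshold called 732 genes lower and 556 higher. The script was tested on simulated data. Fold changes are those of the normalized count + 2. The edgeR 4.0.16 and DESeq2 1.42.0 tests and limma-voom were run on the recovered reads as alternatives, beside other pseudocounts, filters and scalings, each library left out, and a replicate block. Positions are from GENCODE M21 on GRCm38, matched by identifier for 97.1% of genes. Counting intervals cover counting error only.

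The 10 genes, the lists and the named genes were chosen with earlier results of these data known. Named were the 10 genes, the first 3 and all called genes of each list, the 5 profiles nearest to Ifih1 outside the 10 genes, without Gm or Rik symbols, and called neighbours on the chromosome. Overlapping genes, Ddit3, Trim25 values and marker genes were added to describe single results. Rnf125, Ifnb1 and Adarb2 had too few reads to test, and Mov10l1 and the mast cell marker Mcpt4 were not analysed here.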

Additional observations from a re-analysis of the deposited data

How the results depend on the processing

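The direction of all 10 genes was kept in all 15 alternatives. Ddx58, Dhx58, Ddx60 and Helz2 were called in all 15, and Mavs in 0, with limma, edgeR, DESeq2 or limma-voom adjusted p from 0.372 to 0.911. With 1 library left out, the log2 fold change of Zc3hav1 ran from -0.36 to -0.28, and 8 to 9 of the 10 genes were called. Without the filter on low values Zc3hav1 was at -0.32 and missed the threshold (limma adjusted p = 0.064).

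The labels number the replicates of both groups, but only 2 numbers are shared and nothing says that they mark a common source. Deviations from the group means correlated at -0.228 for number 1 and -0.362 for number 2, over genes. The deviations of 2 mutant libraries mirror each other. The opposite pairings therefore had to give 0.228 (wt 1 with mutant 2) and 0.362 (wt 2 with mutant 1). The values for the shared numbers are thus not separate results, and they cannot settle whether the numbers mark pairs. The replicate block leaves 1 residual degree of freedom. In it wt 3 is alone under its number and adds nothing to the estimates, which equal those without wt 3. With this block, 4 of the 10 genes were called lower. The values of the lost calls were -1.24 for Ifih1 (limma adjusted p = 0.0661), -1.13 for Eif2ak2 (0.11), -0.999 for Adar (0.101), -1.26 for Znfx1 (0.0726) and -0.30 for Zc3hav1 (0.422). Over all genes the block called 75 lower and 6 higher. In the lists it called 0 regulators, 1 MAVS signalling gene, 0 eIF2 genes and 2 ZAP partners lower.

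Over all genes, DESeq2 called 1308 lower and 1121 higher. Leaving out 1 library gave 173 to 2929 lower and 29 to 2062 higher, the high ends without mutant 1, where 1 mutant library is left and is assumed to vary like wt. In the same way regulators ranged from 0 to 4 lower and 0 to 2 higher, MAVS signalling from 1 to 5 lower and 0 to 4 higher, other double-stranded RNA-binding genes from 2 to 8 lower and 0 to 3 higher, eIF2 genes from 0 to 6 lower and 0 to 3 higher, and ZAP partners from 2 to 7 lower and 0 to 3 higher. DESeq2 called 2 regulators lower, 1 double-stranded RNA-binding gene higher, and 2 eIF2 genes lower and 1 higher. MAVS signalling had 1 gene lower with a pseudocount of 0.5, no filter, re-estimated size factors, TMM, edgeR and limma-voom. The eIF2 list had 1 gene higher with a filter at 50 and with limma-voom. The cause of these changes was not tested, and 2 mutant libraries limit every call.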
